A study of Mus musculus with 18 samples.

Results

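The amino acid transporters described here are the mouse genes of the solute carrier families Slc1, Slc3, Slc6, Slc7, Slc36, Slc38 and Slc43. A gene was taken where the array table holds a row annotated with its symbol alone, and of several rows the one with the highest mean over the 18 arrays was used. This gave 59 transporters among the 20259 genes that could be named in the same way, with 6 from Slc1, 2 from Slc3, 18 from Slc6, 15 from Slc7, 4 from Slc36, 11 from Slc38 and 3 from Slc43. RNA came from the quadriceps of 10-week-old male mice on a C57BL/6 background and was measured on Mouse Exon 1.0 ST arrays of Affymetrix, in 6 groups of 3 biological replicates each. The groups were *wt* mice, *Dysf-/-* mice, which lack the membrane repair protein dysferlin, *F66* mice, *F66;Dysf-/-* mice, and *wt* and *Dysf-/-* mice injected with ACVR2B/Fc. *F66* is a transgene that expresses follistatin (*Fst*), a secreted inhibitor of myostatin and related ligands, from a myosin light chain promoter and enhancer active in skeletal muscle. It lies on the Y chromosome. ACVR2B/Fc is the extracellular domain of the activin type IIB receptor fused to a mouse Fc domain, and was given intraperitoneally at 10 mg/kg (200 µg) in 4 weekly injections from 6 weeks of age. For all other mice the labelled treatment is none, while the study's methods describe PBS as the control injection, so that whether the *wt* and *Dysf-/-* mice on the arrays received PBS is not settled. All differences below are in log2 units of probe-set signal, tested with limma in 1 fit of all 6 groups, and a transporter is said to be called, or to have risen or fallen, where p was under 0.05 after Benjamini-Hochberg adjustment for all 20259 genes.

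Amino acid transporters set how much of each amino acid a cell holds. Some work as heterodimers, in which a heavy chain of Slc3 (*Slc3a2*, also called CD98, or *Slc3a1*) carries a light chain of Slc7 to the plasma membrane. Exchangers of this kind, such as *Slc7a5* (LAT1), bring in leucine and other large neutral amino acids in return for glutamine, which sodium-coupled carriers of the Slc38 and Slc1 families accumulate. In skeletal muscle leucine is known as a trigger of protein synthesis through the kinase complex mTORC1, and carriers on the lysosome, among them *Slc38a9* and *Slc36a1*, take part in telling mTORC1 how much amino acid is stored there. The Slc6 family includes carriers of taurine, creatine, glycine, GABA and monoamines, so that its members are not all amino acid carriers in the strict sense.

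Promoter sequence from RefSeq was at hand for 42 of the 59 transporters, as windows of 300 bases around an annotated start in build GRCm38.p6. Both strands were searched for TGATGNAA, the core of the C/EBP-ATF element that the amino acid response factor ATF4 binds, and for CACGTG, a form of the E-box. Other forms of the E-box were not searched. No transporter held both. The first occurred in 4 of the 42 transporters (9.52%, against 4.51% of all 27025 genes with a window), namely *Slc7a7*, *Slc7a11*, *Slc1a4* and *Slc6a21*. CACGTG occurred in 9 of 42 (21.4%, against 8.09% of all genes), namely *Slc36a1*, *Slc38a5*, *Slc38a7*, *Slc43a1*, *Slc1a6*, *Slc1a7*, *Slc6a3*, *Slc6a16* and *Slc7a14*. A gene can have several windows, and there were 63 for the 42 transporters and 32851 for all 27025 genes. Counted by window, TGATGNAA occurred in 5 of 63 (3.97% of all windows) and CACGTG in 9 of 63 (7.15% of all windows). These matches are a description of the letters only, and binding was not measured. The windows of 3 transporters to which the results return are printed with their matches in capitals. *Slc7a7* has windows at several starts, and some of them hold neither motif. Its window printed here (chr14:54417895-54418194, minus strand) holds TGATGAAA 141 bases and TGATGCAA 1 base before the start. *Slc36a1* (chr11:55204090-55204389, plus strand) holds 2 matches of CACGTG, 31 and 3 bases before the start. *Slc3a2* (chr19:8713848-8714147, minus strand), the heavy chain that pairs with the *Slc7a7* protein, holds neither.
Slc7a7: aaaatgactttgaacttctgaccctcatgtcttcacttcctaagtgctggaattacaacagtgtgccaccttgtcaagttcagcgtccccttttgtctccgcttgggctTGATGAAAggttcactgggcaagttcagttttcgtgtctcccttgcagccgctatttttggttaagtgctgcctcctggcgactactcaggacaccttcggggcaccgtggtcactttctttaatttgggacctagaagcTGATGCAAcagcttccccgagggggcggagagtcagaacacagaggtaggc
Slc36a1: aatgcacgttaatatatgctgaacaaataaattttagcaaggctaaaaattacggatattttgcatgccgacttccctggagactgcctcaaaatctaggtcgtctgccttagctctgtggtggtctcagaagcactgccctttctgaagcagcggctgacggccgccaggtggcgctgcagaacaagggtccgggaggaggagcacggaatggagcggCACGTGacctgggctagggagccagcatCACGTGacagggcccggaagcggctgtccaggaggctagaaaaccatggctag
Slc3a2: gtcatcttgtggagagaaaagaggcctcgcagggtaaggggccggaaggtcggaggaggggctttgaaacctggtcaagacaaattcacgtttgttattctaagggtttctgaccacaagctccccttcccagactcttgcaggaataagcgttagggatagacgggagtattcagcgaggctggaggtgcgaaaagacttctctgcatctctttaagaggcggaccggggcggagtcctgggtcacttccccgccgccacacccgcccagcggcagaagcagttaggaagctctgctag

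Signals of different probe sets are not on one scale, so levels are compared between groups and not between genes. The mean of 13 transporters lay below 5.37, the median of all rows of the table, as did that of 26.1% of all genes. For 2 transporters the chosen row is in doubt. The annotation gives *Slc38a6* 88 rows, and only 2 of them lie, in the order of row numbers, mostly among rows of its own chromosome, as 90.2% of all rows do. The chosen rows of *Slc38a6* and of *Slc7a6* (1 of 4 rows) both lie among rows of other chromosomes, and for these 2 genes the row at the gene's own locus is given as well. That second choice was made after the values were seen.

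On all arrays together the medians ran from 5.27 to 5.45, and the lowest correlation between 2 arrays was 0.954. *Dysf* signal was 6.76 to 7.10 in the arrays labelled *Dysf-/-* and 8.48 to 8.91 in the others, and *Fst* signal was 5.92 to 6.38 in the *F66* and *F66;Dysf-/-* arrays and 5.10 to 5.85 in the others, as the labels say. The mean signal of 13 muscle fibre genes was 12.43 to 12.64 in every array. Markers of some other cells differed strongly between groups. Group means ran from 5.10 to 5.32 for markers of T, B and NK lymphocytes and from 4.97 to 5.16 for those of neutrophils. For erythroid markers they ran from 5.63 to 6.04. The mean of 14 macrophage and monocyte markers was 6.18 and 6.32 in *wt* muscle without and with ACVR2B/Fc, 6.82 and 7.13 in the same 2 groups of *Dysf-/-* mice, 7.19 in *F66* and 8.89 in *F66;Dysf-/-* muscle, with array values of 6.12 to 6.23, 6.21 to 6.46, 6.69 to 7.01, 6.90 to 7.33, 7.10 to 7.30 and 8.79 to 8.97. All 14 were higher in *F66;Dysf-/-* than in *Dysf-/-* muscle, by 0.48 to 3.34. In the same comparison 9 of 9 fibroblast markers, 7 of 7 cell division genes and 5 of 6 satellite cell and myoblast markers were higher (15.2% of all genes). There 8 of 13 muscle fibre genes, 5 of 9 endothelial and 4 of 6 adipocyte markers were lower (18.4% of all genes). The muscle fibre gene *Des* was higher (0.13). Of the Schwann cell markers *Mbp* (-0.33) and *Sox10* (-0.41) were lower and *Pmp22* (0.34) higher. In *F66* against *wt* muscle 12 of 14 macrophage and monocyte and 8 of 9 fibroblast markers were higher (8.11% of all genes). There 6 of 9 endothelial, 4 of 6 adipocyte and 1 of 4 Schwann cell markers were lower (5.5% of all genes). Of the muscle fibre genes *Mb* (-0.41) and *Ryr1* (-0.27) were lower and *Des* (0.38) higher. The part of these cells in the results below was not tested, and in whole muscle a change in the number of cells and a change in RNA per cell cannot be told apart.

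**Figure D1:**
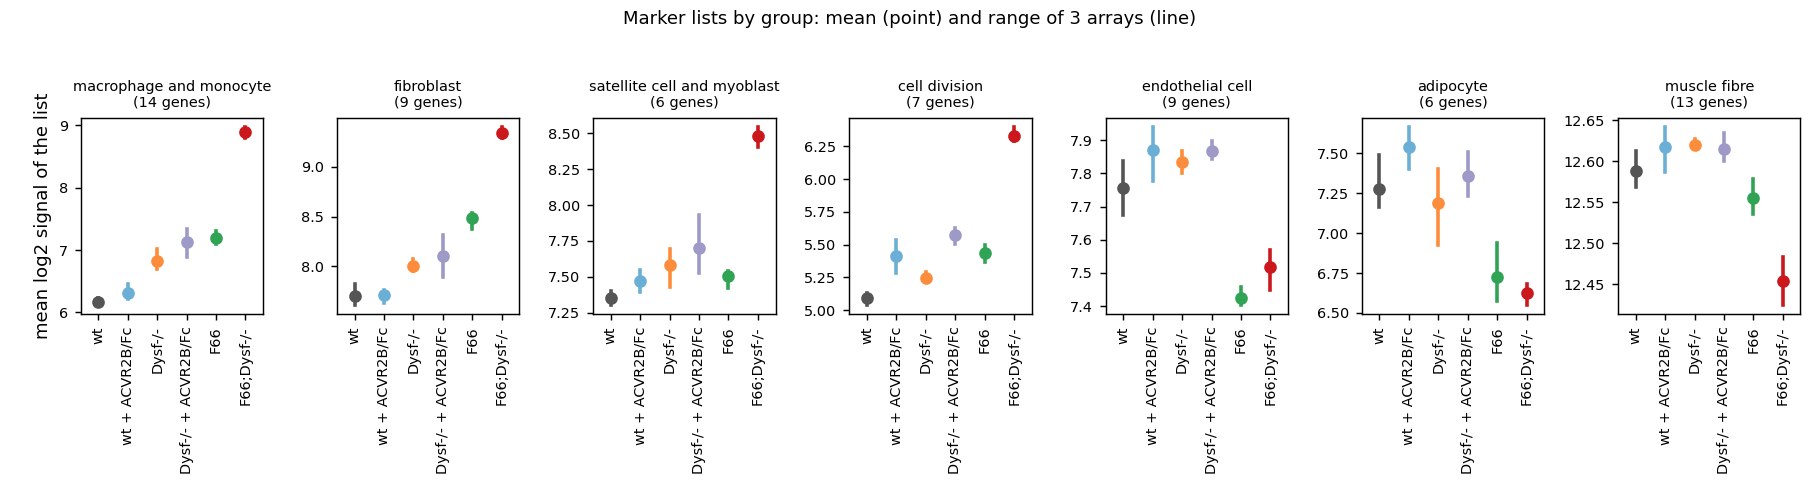
Mean log2 signal of 7 marker lists (vertical axis) in the 6 groups (horizontal axis). Points are means and lines the range of 3 arrays. Macrophage markers reached 8.89 in *F66;Dysf-/-* muscle against 6.82 in *Dysf-/-* muscle, and adipocyte markers were lowest in *F66* (6.73) and *F66;Dysf-/-* (6.62) muscle.

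Which transporters differed among the groups? Over the 6 groups 39 of 59 passed the F test (66.1%, against 49.2% of all genes). In *Dysf-/-* against *wt* muscle 2 of 59 were called (0.489% of all genes were). In *F66* against *wt* muscle 11 were called (13.6% of all genes), 5 higher and 6 lower (8.11% and 5.5%), with a median difference of -0.070 over the 59 and -0.028 over all genes. That count was 7 without *F66* replicate 1 and 7 without *F66* replicate 3. In *F66;Dysf-/-* against *Dysf-/-* muscle 23 were called (33.6% of all genes), 10 higher and 13 lower (15.2% and 18.4%), with a median difference of -0.10 over the 59 and -0.086 over all genes. In *F66;Dysf-/-* against *F66* muscle, the comparison of dysferlin loss under the transgene, 22 were called (34.7% of all genes), 11 in each direction (14.5% and 20.3%), with a median of -0.041 against -0.077. ACVR2B/Fc gave no call in either background (0.0296% and 0.0247% of all genes), as described further on. In both comparisons of *F66;Dysf-/-* muscle the percentage of transporters called (39% and 37.3%) was thus near that of all genes. When each array was centred on its median, the split of higher and lower calls became 7 and 4 in *F66* muscle, 14 and 8 in *F66;Dysf-/-* against *Dysf-/-* muscle and 13 and 9 against *F66* muscle. When arrays were quantile normalized again, the 3 splits were 5 and 4, 10 and 9, and 10 and 11. No called transporter changed its sign under either scaling, and in *F66;Dysf-/-* against *Dysf-/-* muscle 9 of the 10 higher and 8 of the 13 lower calls were made under all 3 scalings.

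**Figure D2:**
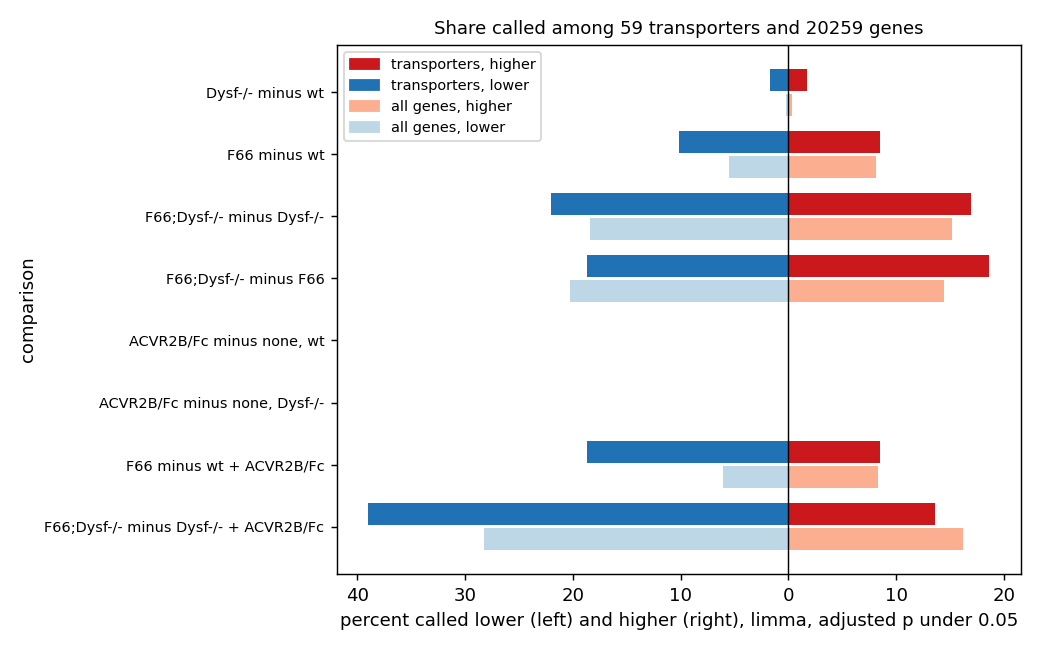
Percent of the 59 transporters (dark bars) and of all 20259 genes (light bars) called lower (left) or higher (right) in 8 comparisons. The shares run from 0% with ACVR2B/Fc to 52.5% of transporters and 44.4% of all genes in *F66;Dysf-/-* against ACVR2B/Fc-injected *Dysf-/-* muscle.

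**Figure D3:**
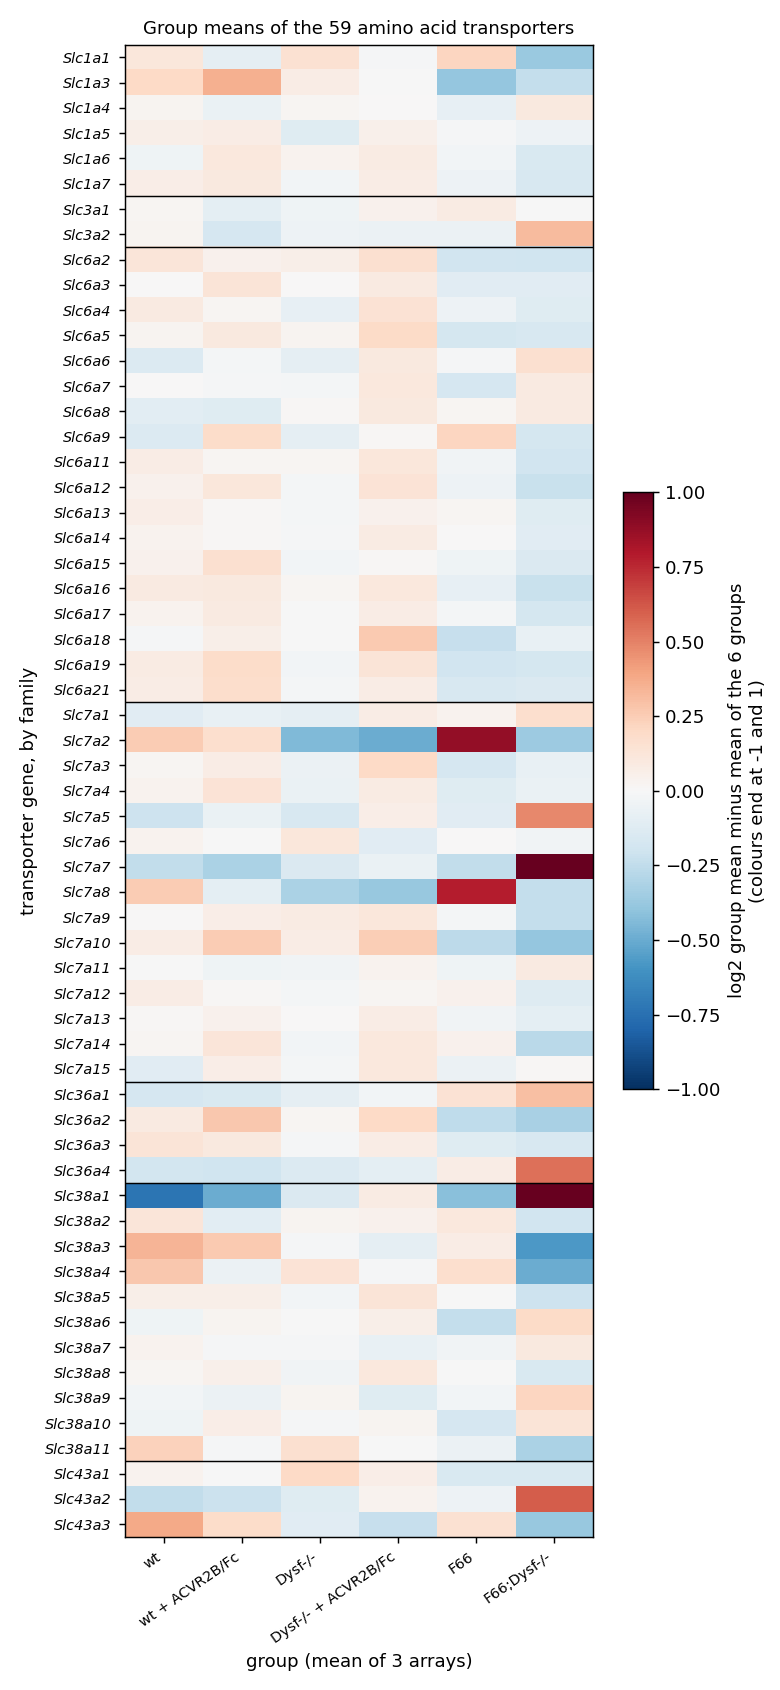
Group means of the 59 transporters (rows, by family) in the 6 groups (columns), as log2 difference from the mean of the 6 groups of the same gene. The deepest red is that of *Slc38a1* and *Slc7a7* in *F66;Dysf-/-* muscle and of *Slc7a2* and *Slc7a8* in *F66* muscle.

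The heavy chain *Slc3a2* and 2 of its light chains, *Slc7a7* and *Slc7a5*, were higher in *F66;Dysf-/-* than in *Dysf-/-* muscle. *Slc7a7* (y+LAT1), which exchanges cationic for neutral amino acids and has the ATF4-type matches in the window printed above, had signals of 5.74, 5.84 and 5.80 in *wt* mice, 5.84, 5.71 and 5.82 in *F66* mice, 5.89, 5.90 and 5.89 in *Dysf-/-* mice and 7.12, 7.02 and 7.03 in *F66;Dysf-/-* mice, and with ACVR2B/Fc 5.85, 5.79 and 5.53 in *wt* and 6.00, 5.84 and 6.07 in *Dysf-/-* mice. The 3 *F66;Dysf-/-* arrays stood above every other array, and the others lay between 5.53 and 6.07. *Slc7a7* rose by 1.16 (SE 0.079, adjusted p = 1.86e-08) in *F66;Dysf-/-* against *Dysf-/-* muscle, a fold of 2.24, while *F66* and *wt* muscle differed by -0.0015 (95% interval -0.17 to 0.17). The effect of the transgene thus differed between backgrounds by 1.17 (SE 0.11, adjusted p = 6.66e-06). *Slc7a5* had signals of 6.82, 6.98 and 6.73 in *wt* mice, 6.85, 7.01 and 6.97 in *F66* mice, 6.92, 6.91 and 6.86 in *Dysf-/-* mice and 7.58, 7.44 and 7.57 in *F66;Dysf-/-* mice, and with ACVR2B/Fc 6.95, 7.09 and 6.93 in *wt* and 7.01, 7.12 and 7.23 in *Dysf-/-* mice. It too was highest in the 3 *F66;Dysf-/-* arrays, and rose by 0.64 (SE 0.076, adjusted p = 9.66e-06) against *Dysf-/-* muscle, 1.55-fold, with a difference between backgrounds of 0.54 (SE 0.11, adjusted p = 0.00291). *Slc3a2* itself had signals of 7.25, 7.19 and 7.20 in *wt* mice, 7.04, 7.19 and 7.16 in *F66* mice, 7.10, 7.14 and 7.17 in *Dysf-/-* mice and 7.60, 7.47 and 7.46 in *F66;Dysf-/-* mice, and with ACVR2B/Fc 7.05, 7.02 and 7.00 in *wt* and 7.10, 7.16 and 7.13 in *Dysf-/-* mice. No other array reached the *F66;Dysf-/-* values, and the rise was 0.37 (SE 0.053, adjusted p = 5.61e-05), 1.29-fold, against -0.085 (95% interval -0.20 to 0.028) in *F66* against *wt* muscle. The difference of these effects was 0.46 (SE 0.075, adjusted p = 0.000628).

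Other light chains of the Slc7 family moved otherwise. *Slc7a8* (LAT2), an exchanger of neutral amino acids, had signals of 9.89, 10.04 and 10.10 in *wt* mice, 10.48, 10.53 and 10.62 in *F66* mice, 9.46, 9.48 and 9.37 in *Dysf-/-* mice and 9.58, 9.46 and 9.53 in *F66;Dysf-/-* mice, and with ACVR2B/Fc 9.48, 9.85 and 9.66 in *wt* and 9.22, 9.63 and 9.27 in *Dysf-/-* mice. The *F66* arrays were the highest, *wt* came next, and the 3 *F66;Dysf-/-* arrays lay inside the range of the *Dysf-/-* groups. *Slc7a8* fell by 0.57 in *Dysf-/-* against *wt* muscle (SE 0.10, adjusted p = 0.0231) and rose by 0.53 (SE 0.10, adjusted p = 0.00302) in *F66* against *wt* muscle. In *F66;Dysf-/-* against *Dysf-/-* muscle the difference was 0.083 (95% interval -0.14 to 0.31), and the difference of the 2 transgene effects was -0.45, which did not pass (adjusted p = 0.052). Against *F66* muscle, *F66;Dysf-/-* muscle was lower by 2.03-fold (adjusted p = 2.12e-06). The *Dysf-/-* call was lost without *wt* replicate 2 or 3 or *Dysf-/-* replicate 1 or 3 (adjusted p up to 0.114). *Slc7a10* (Asc-1), a carrier of small neutral amino acids that is known in mouse as a surface marker of white adipocytes, had signals of 6.75, 6.78 and 6.62 in *wt* mice, 6.36, 6.38 and 6.41 in *F66* mice, 6.82, 6.80 and 6.54 in *Dysf-/-* mice and 6.30, 6.24 and 6.24 in *F66;Dysf-/-* mice, and with ACVR2B/Fc 6.93, 6.87 and 6.90 in *wt* and 6.95, 6.93 and 6.79 in *Dysf-/-* mice. All 6 arrays with the transgene lay below all 12 without it. *Slc7a10* fell in both transgenic groups, with differences of -0.33 (SE 0.072, adjusted p = 0.0058) in *F66* and of -0.46 (SE 0.072, adjusted p = 0.000126) in *F66;Dysf-/-* muscle. The adipocyte markers moved with it, from a mean of 7.28 in *wt* to 6.73 in *F66* and from 7.19 in *Dysf-/-* to 6.62 in *F66;Dysf-/-* muscle, and their part was not tested. *Slc7a9*, the light chain that pairs with *Slc3a1* in kidney and gut, fell by 0.32 in *F66;Dysf-/-* against *Dysf-/-* muscle (adjusted p = 0.00391), from a mean signal of 5.10, and *Slc3a1* was not called in any comparison. *Slc7a6* (y+LAT2) was not called on the deposited scale in either row, with group means of 12.36 to 12.59 in the chosen row and of 7.20 to 7.31 in the row at its own locus. With requantiled arrays the chosen row was called lower in *F66;Dysf-/-* than in *Dysf-/-* (-0.23) and than in *F66* muscle (-0.31).

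**Figure D4:**
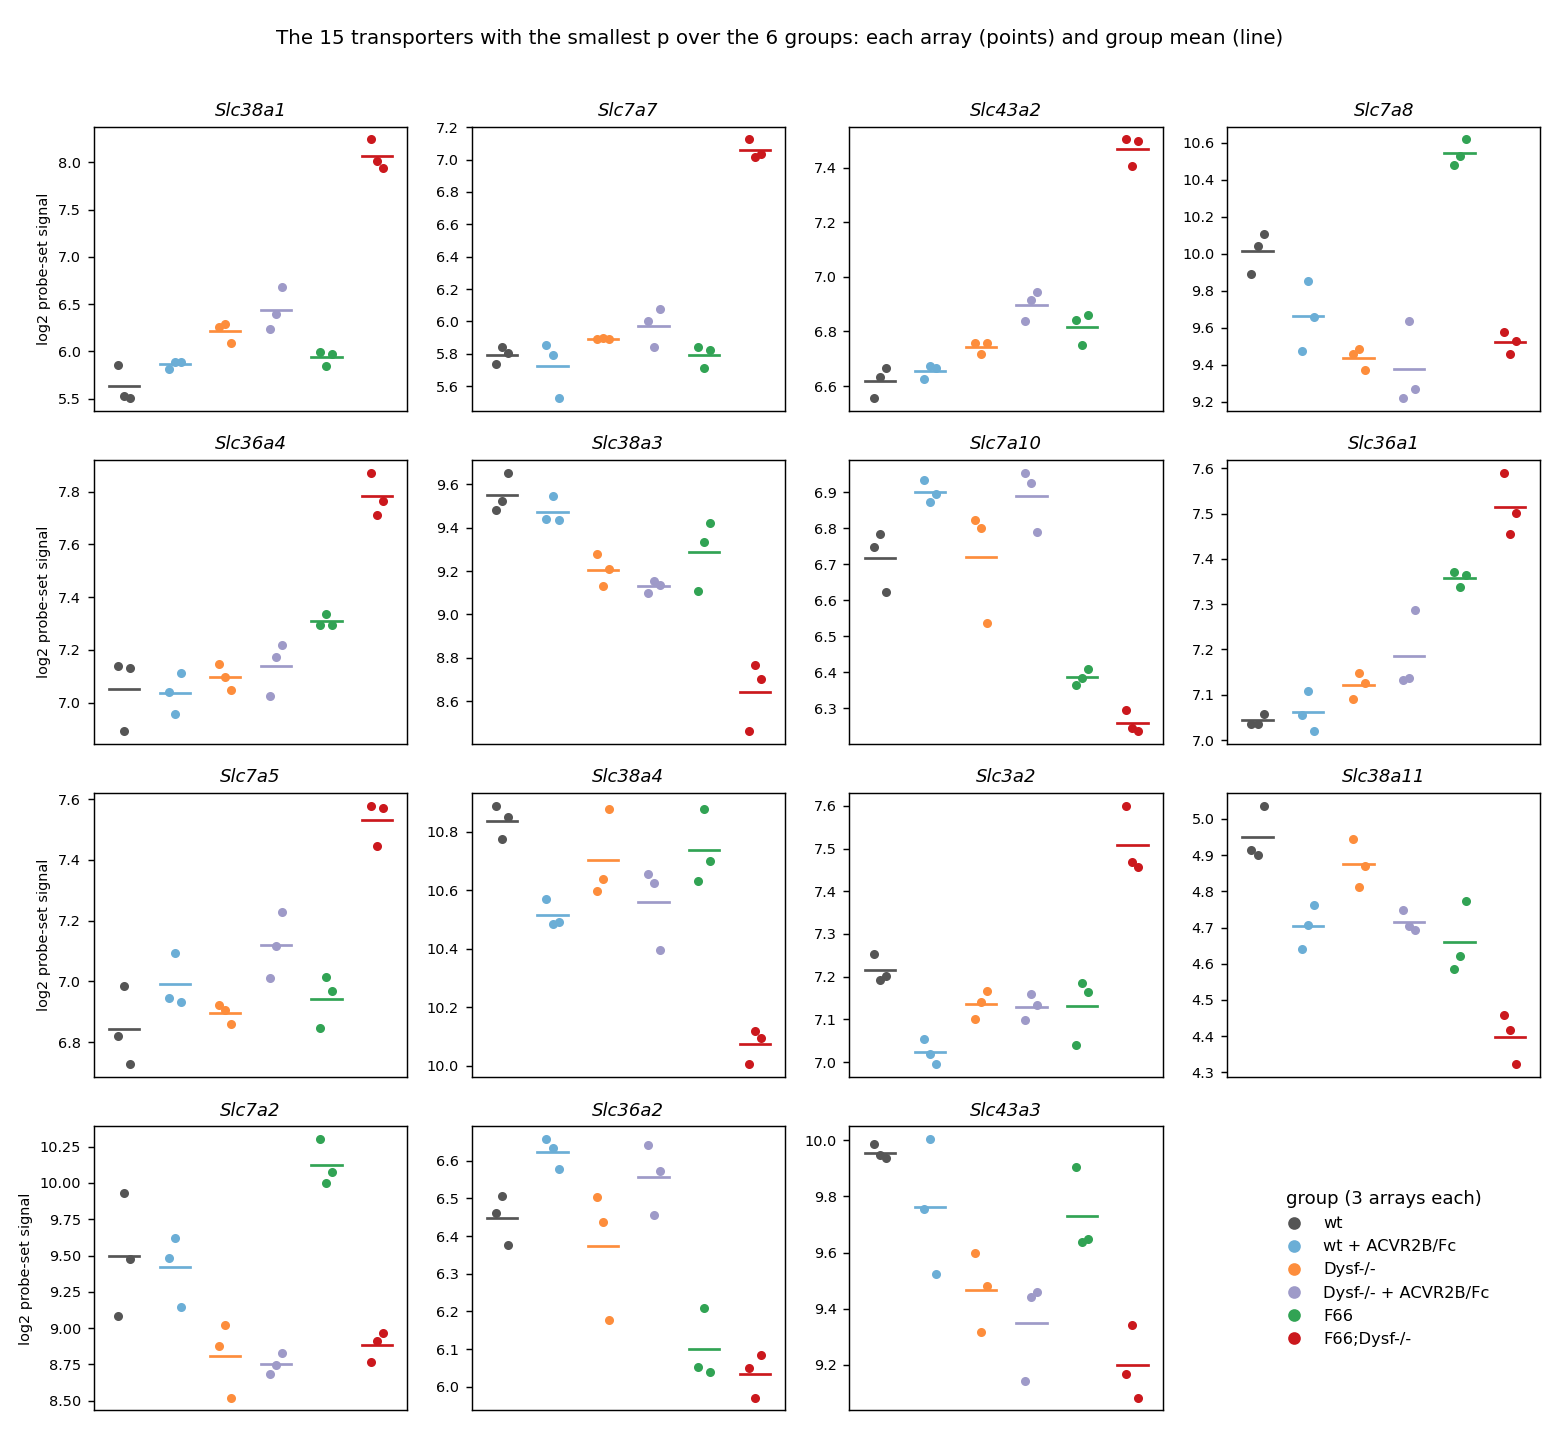
Log2 probe-set signal (vertical axes, which differ between panels) in each array for the 15 transporters with the smallest p over the 6 groups. Lines are means of 3 arrays. *Slc7a7* lies at 7.02 to 7.12 in *F66;Dysf-/-* muscle and at 5.53 to 6.07 elsewhere, while *Slc7a8* is highest in *F66* muscle (10.48 to 10.62).

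Carriers of arginine and lysine did not move together. *Slc7a2* (CAT2) had signals of 9.08, 9.93 and 9.48 in *wt* mice, 10.30, 10.00 and 10.08 in *F66* mice, 8.87, 9.02 and 8.52 in *Dysf-/-* mice and 8.77, 8.91 and 8.96 in *F66;Dysf-/-* mice, and with ACVR2B/Fc 9.48, 9.62 and 9.15 in *wt* and 8.68, 8.74 and 8.83 in *Dysf-/-* mice. It was highest in the *F66* arrays and reached at most 9.02 in the 9 arrays without dysferlin, while the *wt* arrays spread from 9.08 to 9.93. *Slc7a2* rose by 0.63 (SE 0.18, adjusted p = 0.0281) in *F66* against *wt* muscle and differed by 0.075 (95% interval -0.30 to 0.45) in *F66;Dysf-/-* against *Dysf-/-* muscle. In *Dysf-/-* against *wt* muscle it differed by -0.69, which did not pass (adjusted p = 0.128), and in *F66;Dysf-/-* against *F66* muscle it was 2.37-fold lower (adjusted p = 5.63e-05). The *F66* call was lost without *wt* replicate 1 or 3 or *F66* replicate 1 or 3 (adjusted p up to 0.116). A second row of *Slc7a2* had group means of 7.19 in *wt*, 7.36 in *F66*, 6.57 in *Dysf-/-* and 6.43 in *F66;Dysf-/-* muscle. *Slc7a1* (CAT1), the widely expressed carrier of this group, rose by 0.27 (SE 0.06, adjusted p = 0.00302) in *F66;Dysf-/-* against *Dysf-/-* muscle, from 6.51 ± 0.11 to 6.77 ± 0.022 (SD, n = 3). Its second row differed by -0.34, so that the direction for the gene depends on the row. In *F66* against *wt* muscle *Slc7a1* differed by 0.15 (adjusted p = 0.125). *Slc7a3* (CAT3) passed only in comparisons with ACVR2B/Fc-injected muscle.

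*Slc38a1*, of the Slc38 carriers, showed the largest difference of the 59 in *F66;Dysf-/-* muscle, against *Dysf-/-* as well as against *F66*. *Slc38a1* (SNAT1) takes up glutamine and other small neutral amino acids with sodium. The annotation gives *Slc38a1* 5 rows, and the values here are those of the row with the highest mean alone. Its signals were 5.86, 5.53 and 5.51 in *wt* mice, 6.00, 5.85 and 5.97 in *F66* mice, 6.26, 6.29 and 6.09 in *Dysf-/-* mice and 8.24, 8.02 and 7.94 in *F66;Dysf-/-* mice, and with ACVR2B/Fc 5.82, 5.89 and 5.89 in *wt* and 6.24, 6.40 and 6.68 in *Dysf-/-* mice. All *F66;Dysf-/-* arrays lay above every other array, and the *Dysf-/-* arrays lay above all *wt* and *F66* arrays. *Slc38a1* rose by 1.85 (SE 0.11, adjusted p = 6.98e-09) in *F66;Dysf-/-* against *Dysf-/-* muscle, 3.62-fold, and by 0.58 (SE 0.11, adjusted p = 0.0361) in *Dysf-/-* against *wt* muscle. In *F66* against *wt* muscle the difference was 0.31 (adjusted p = 0.0917), and the transgene effects differed between backgrounds by 1.55 (SE 0.16, adjusted p = 1.17e-05). The *Dysf-/-* call was lost without *wt* replicate 2 or 3, ACVR2B/Fc-injected *wt* replicate 1, 2 or 3, *Dysf-/-* replicate 1, 2 or 3, ACVR2B/Fc-injected *Dysf-/-* replicate 2, *F66* replicate 3 or *F66;Dysf-/-* replicate 2 (adjusted p up to 0.171), with differences of 0.52 to 0.69. Apart from *F66* muscle, the groups came in the same order for the macrophage markers as for *Slc38a1*. The marker mean of *F66* muscle (7.19) was above those of *Dysf-/-* (6.82) and ACVR2B/Fc-injected *Dysf-/-* muscle (7.13). The *Slc38a1* means of these groups were 5.94, 6.21 and 6.44 in the same order. The part of macrophages was not tested.

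*Slc38a4* and *Slc38a3* went down where *Slc38a1* went up. *Slc38a4* (SNAT4), a sodium-coupled carrier of small neutral amino acids, had signals of 10.89, 10.78 and 10.85 in *wt* mice, 10.63, 10.88 and 10.70 in *F66* mice, 10.60, 10.64 and 10.88 in *Dysf-/-* mice and 10.01, 10.12 and 10.09 in *F66;Dysf-/-* mice, and with ACVR2B/Fc 10.57, 10.49 and 10.49 in *wt* and 10.65, 10.63 and 10.40 in *Dysf-/-* mice. The *F66;Dysf-/-* arrays were the lowest and did not overlap with any other group. *Slc38a4* fell by 0.63 in *F66;Dysf-/-* against *Dysf-/-* muscle (SE 0.086, adjusted p = 3.3e-05), 1.55-fold, and differed by -0.10 (95% interval -0.28 to 0.08) in *F66* against *wt* muscle, a difference between backgrounds of -0.53 (SE 0.12, adjusted p = 0.00688). *Slc38a3* (SNAT3), which moves glutamine, histidine and asparagine, had signals of 9.48, 9.52 and 9.65 in *wt* mice, 9.11, 9.33 and 9.42 in *F66* mice, 9.28, 9.13 and 9.21 in *Dysf-/-* mice and 8.46, 8.77 and 8.70 in *F66;Dysf-/-* mice, and with ACVR2B/Fc 9.44, 9.54 and 9.43 in *wt* and 9.10, 9.15 and 9.13 in *Dysf-/-* mice. It was high in both *wt* groups and lowest in the *F66;Dysf-/-* arrays. *Slc38a3* fell by 0.56 in *F66;Dysf-/-* against *Dysf-/-* muscle (adjusted p = 0.000113), and its differences on the deposited scale in *Dysf-/-* (-0.35, adjusted p = 0.112) and in *F66* muscle (-0.26, adjusted p = 0.056) against *wt* did not pass, though the *Dysf-/-* one did with requantiled arrays. In *F66;Dysf-/-* against *Dysf-/-* muscle 8 of 13 muscle fibre genes were lower as well (18.4% of all genes), while *Des* was higher (0.13). The median was -0.16 over the 13 and -0.086 over all genes, the lowest of the 13 being *Mb* at -0.57. *Slc38a2* (SNAT2), whose amount is known to follow amino acid supply, was not called in any comparison on the deposited scale. With requantiled arrays *Slc38a2* was called lower in *F66;Dysf-/-* than in *F66* muscle (-0.58) and than in ACVR2B/Fc-injected *Dysf-/-* muscle (-0.39). Its means ran from 11.11 ± 0.14 in *F66;Dysf-/-* to 11.43 ± 0.11 (SD, n = 3) in *wt* muscle, and *F66;Dysf-/-* and *Dysf-/-* muscle differed by -0.22 (95% interval -0.50 to 0.058). *Slc38a11*, a dim transporter, had signals of 4.91, 4.90 and 5.04 in *wt* mice, 4.59, 4.62 and 4.77 in *F66* mice, 4.95, 4.81 and 4.87 in *Dysf-/-* mice and 4.46, 4.42 and 4.32 in *F66;Dysf-/-* mice, and with ACVR2B/Fc 4.64, 4.71 and 4.76 in *wt* and 4.75, 4.70 and 4.69 in *Dysf-/-* mice. It fell by 0.29 in *F66* against *wt* (adjusted p = 0.00589) and by 0.48 in *F66;Dysf-/-* against *Dysf-/-* muscle (adjusted p = 2.56e-05), with all *F66;Dysf-/-* arrays below all others.

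For *Slc38a6* the row decides the size of the change. The chosen row had means of 12.65 ± 0.052 in *wt*, 12.69 ± 0.11 in *Dysf-/-*, 12.45 ± 0.11 in *F66* and 12.88 ± 0.034 (SD, n = 3) in *F66;Dysf-/-* muscle, a rise of 0.19 (SE 0.068, adjusted p = 0.0422) against *Dysf-/-* muscle that was lost with requantiled arrays and without any 1 of 7 arrays. The row at the locus of *Slc38a6* had signals of 6.51, 6.30 and 6.47 in *wt* mice, 6.52, 6.47 and 6.33 in *F66* mice, 6.65, 6.60 and 6.64 in *Dysf-/-* mice and 7.45, 7.31 and 7.28 in *F66;Dysf-/-* mice, and with ACVR2B/Fc 6.48, 6.44 and 6.71 in *wt* and 6.65, 6.46 and 6.61 in *Dysf-/-* mice. There the 3 *F66;Dysf-/-* arrays stood above all others, higher than *Dysf-/-* muscle by 0.72 (SE 0.082, adjusted p = 6.27e-06), while *F66* and *wt* muscle differed by 0.012 (95% interval -0.16 to 0.19). *Slc38a5* (SNAT5), a carrier of glutamine like *Slc38a3*, differed by -0.20 and *Slc38a10* by 0.29 in *F66;Dysf-/-* against *F66* muscle, the first call being lost under both other scalings and without *F66* replicate 1 or 3 or *F66;Dysf-/-* replicate 1 or 3 (adjusted p up to 0.126).

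Of the Slc36 family, *Slc36a1* and *Slc36a4* rose with the transgene on both backgrounds. *Slc36a1* (PAT1) moves glycine, alanine and proline together with protons and is found on lysosomes as well as on the cell surface, and its window above holds the CACGTG matches. Its signals were 7.04, 7.04 and 7.06 in *wt* mice, 7.37, 7.34 and 7.37 in *F66* mice, 7.09, 7.15 and 7.13 in *Dysf-/-* mice and 7.59, 7.45 and 7.50 in *F66;Dysf-/-* mice, and with ACVR2B/Fc 7.06, 7.11 and 7.02 in *wt* and 7.13, 7.14 and 7.29 in *Dysf-/-* mice. The *F66* arrays lay above all arrays without the transgene, and the *F66;Dysf-/-* arrays lay above the *F66* arrays. *Slc36a1* rose by 0.31 (SE 0.053, adjusted p = 0.000785) in *F66* against *wt* muscle and by 0.39 (SE 0.053, adjusted p = 2.89e-05) in *F66;Dysf-/-* against *Dysf-/-* muscle, folds of 1.24 and 1.31. Both calls held without any 1 array, and the transgene effects differed between backgrounds by 0.079 (adjusted p = 0.539). *Slc36a4* (PAT4), a carrier of proline and tryptophan, had signals of 7.14, 6.89 and 7.13 in *wt* mice, 7.29, 7.34 and 7.29 in *F66* mice, 7.14, 7.10 and 7.05 in *Dysf-/-* mice and 7.87, 7.71 and 7.77 in *F66;Dysf-/-* mice, and with ACVR2B/Fc 7.04, 6.96 and 7.11 in *wt* and 7.03, 7.17 and 7.22 in *Dysf-/-* mice. The same order of groups was seen, with *F66;Dysf-/-* arrays highest and *F66* arrays next. *Slc36a4* rose by 0.25 (SE 0.073, adjusted p = 0.0309) and by 0.69 (SE 0.073, adjusted p = 2.79e-06), with a difference between backgrounds of 0.43 (SE 0.10, adjusted p = 0.00935). The *F66* call was lost without *wt* replicate 2 or *F66* replicate 1, 2 or 3 (adjusted p up to 0.139). *Slc38a9*, the lysosomal carrier that senses arginine for mTORC1, rose by 0.19 (SE 0.06, adjusted p = 0.0261) in *F66;Dysf-/-* against *Dysf-/-* muscle, a call lost without *Dysf-/-* replicate 1 or 2 or *F66;Dysf-/-* replicate 1 or 2 (adjusted p up to 0.122), and the second row of *Slc38a9* differed by -0.11. *Slc38a7*, a lysosomal exporter of glutamine and asparagine, was not called in any comparison on the deposited scale. With centred arrays *Slc38a7* was called higher in *F66;Dysf-/-* than in *Dysf-/-* (0.20) and than in ACVR2B/Fc-injected *Dysf-/-* muscle (0.30).

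The other 2 members of the Slc36 family fell. *Slc36a2* (PAT2), a carrier of glycine and proline known in mouse as a surface marker of brown and beige adipocytes, had signals of 6.46, 6.51 and 6.38 in *wt* mice, 6.05, 6.21 and 6.04 in *F66* mice, 6.50, 6.44 and 6.18 in *Dysf-/-* mice and 6.05, 5.97 and 6.08 in *F66;Dysf-/-* mice, and with ACVR2B/Fc 6.66, 6.63 and 6.58 in *wt* and 6.64, 6.45 and 6.57 in *Dysf-/-* mice. Transgenic arrays were lower than the others on each background, with 1 *Dysf-/-* array near them at 6.18. *Slc36a2* fell by 0.35 in *F66* against *wt* (adjusted p = 0.00847) and by 0.34 in *F66;Dysf-/-* against *Dysf-/-* muscle (adjusted p = 0.00404), beside the lower adipocyte markers given above for *Slc7a10*. *Slc36a3* fell by 0.25 in *F66* muscle (adjusted p = 0.0385), a call that neither of the other scalings made and that was lost without *wt* replicate 2 or 3, *F66* replicate 2 or 3 or *F66;Dysf-/-* replicate 3 (adjusted p up to 0.163).

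**Figure D5:**
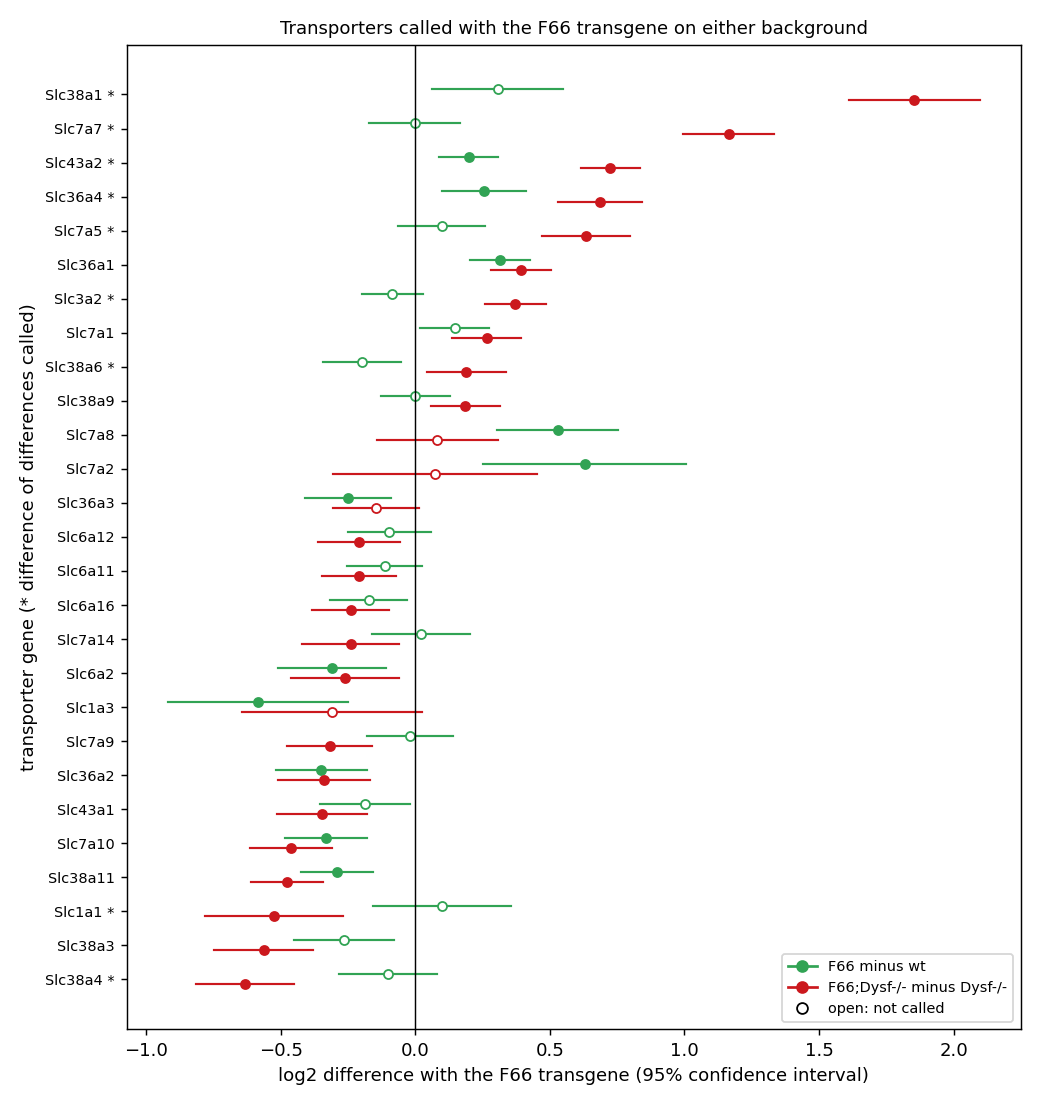
Log2 difference made by the *F66* transgene on the *wt* background (green) and on the *Dysf-/-* background (red) for the 27 transporters called in either, with 95% confidence intervals (horizontal axis). Filled points were called, and asterisks mark the 9 transporters whose 2 differences differed from each other. *Slc38a1* differs by 1.85 on the *Dysf-/-* and by 0.31 on the *wt* background.

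The transgene was compared on both backgrounds. In *F66* against *wt* and in *F66;Dysf-/-* against *Dysf-/-* muscle, 7 transporters were called in both (11.9%, against 8.27% of all genes), which is 7 of the 11 calls of the first and 7 of the 23 of the second. All 7 had the same direction, as had 90.4% of all genes called in both. Another 4 were called in the first alone (6.78%, against 5.35% of all genes) and 16 in the second alone (27.1%, against 25.3%), so that the shares were near those of all genes. A direct test of the difference called 9 of 59 (16.5% of all genes), 7 with a positive and 2 with a negative difference (8.54% and 7.93%). These were *Slc38a1*, *Slc7a7*, *Slc7a5*, *Slc43a2*, *Slc3a2*, *Slc36a4* and *Slc38a6*, whose call was lost with requantiled arrays, and with negative sign *Slc1a1* and *Slc38a4*. For the remaining transporters called on 1 background alone, a difference between backgrounds was not shown.

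Of the Slc43 family, *Slc43a1* and *Slc43a2* are further carriers of large neutral amino acids, which do not need a heavy chain. *Slc43a2* (LAT4), a carrier of branched-chain amino acids, phenylalanine and methionine, had signals of 6.56, 6.63 and 6.67 in *wt* mice, 6.84, 6.75 and 6.86 in *F66* mice, 6.76, 6.72 and 6.76 in *Dysf-/-* mice and 7.50, 7.41 and 7.50 in *F66;Dysf-/-* mice, and with ACVR2B/Fc 6.62, 6.67 and 6.67 in *wt* and 6.84, 6.92 and 6.94 in *Dysf-/-* mice. It was highest in the *F66;Dysf-/-* arrays, and its *F66* arrays lay above the *wt* arrays. *Slc43a2* rose by 0.20 (SE 0.051, adjusted p = 0.0163) in *F66* against *wt* and by 0.73 (SE 0.051, adjusted p = 2.75e-08) in *F66;Dysf-/-* against *Dysf-/-* muscle, 1.65-fold, with a difference between backgrounds of 0.53 (SE 0.072, adjusted p = 0.000133). The *F66* call was lost without *wt* replicate 1 or *F66* replicate 1 or 3 (adjusted p up to 0.0684). *Slc43a1* (LAT3), which carries the same amino acids, went down, from 8.08 ± 0.14 in *Dysf-/-* to 7.74 ± 0.066 (SD, n = 3) in *F66;Dysf-/-* muscle, a difference of -0.35 (SE 0.079, adjusted p = 0.00298). In *F66* against *wt* muscle *Slc43a1* differed by -0.19, which did not pass (adjusted p = 0.136). *Slc43a3*, known in human cells as a carrier of purine bases, had signals of 9.99, 9.95 and 9.94 in *wt* mice, 9.91, 9.64 and 9.65 in *F66* mice, 9.60, 9.32 and 9.48 in *Dysf-/-* mice and 9.17, 9.34 and 9.08 in *F66;Dysf-/-* mice, and with ACVR2B/Fc 9.76, 10.00 and 9.52 in *wt* and 9.14, 9.44 and 9.46 in *Dysf-/-* mice. Its mean was highest in *wt* and lower in each of the 3 groups that lack dysferlin. *Slc43a3* was lower in *F66;Dysf-/-* than in *F66* muscle, with a difference of -0.53 (SE 0.12, adjusted p = 0.0029), and differed by -0.49 in *Dysf-/-* against *wt* muscle, which did not pass (adjusted p = 0.104).

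Of the glutamate and neutral amino acid carriers of Slc1, *Slc1a1* (EAAC1), a carrier of glutamate and cysteine, had means of 6.64 ± 0.15 in *wt*, 6.68 ± 0.23 in *Dysf-/-*, 6.74 ± 0.063 in *F66* and 6.15 ± 0.028 (SD, n = 3) in *F66;Dysf-/-* muscle. It fell by 0.53 in *F66;Dysf-/-* against *Dysf-/-* muscle (adjusted p = 0.00322), and the transgene effects differed by -0.62 (SE 0.17, adjusted p = 0.0195), a call lost without *Dysf-/-* replicate 3 (adjusted p = 0.0523). *Slc1a3* (GLAST), the glutamate carrier best known from glia, had means of 6.63 ± 0.094 in *wt*, 6.05 ± 0.20 in *F66*, 6.51 ± 0.35 in *Dysf-/-* and 6.20 ± 0.11 in *F66;Dysf-/-* muscle. *Slc1a3* fell by 0.58 in *F66* against *wt* muscle (SE 0.16, adjusted p = 0.0219), a call lost without *wt* replicate 1 or 3 or *F66* replicate 1 (adjusted p up to 0.0975). The mean of 4 Schwann cell markers, glia of nerve, was 7.29 to 7.35 in the *wt* and 7.08 to 7.13 in the *F66* arrays. Of these markers *Mbp* was lower by 1.36-fold (adjusted p = 0.000584), while *Sox10* (-0.13), *Pmp22* (-0.042) and *S100b* (-0.24) were not called. The marker mean was 7.25 in *Dysf-/-* and 7.10 in *F66;Dysf-/-* muscle. In ACVR2B/Fc-injected *wt* muscle the marker mean was 7.22 and that of *Slc1a3* was 6.79. The part of these cells was not tested. *Slc1a5* (ASCT2), the sodium-coupled glutamine exchanger, was not called in any comparison. Its group means lay between 7.46 and 7.65, and *F66;Dysf-/-* and *Dysf-/-* muscle differed by 0.066 (95% interval -0.062 to 0.19).

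The 18 transporters of the Slc6 family showed small differences. *Slc6a8*, the creatine carrier, had group means of 9.91 to 10.13 and was not called in any comparison of 2 groups on the deposited scale, with a 95% interval of -0.018 to 0.27 for *F66* against *wt* and of -0.066 to 0.22 for *F66;Dysf-/-* against *Dysf-/-* muscle. With centred arrays *Slc6a8* was called higher in *F66* than in ACVR2B/Fc-injected *wt* muscle (0.22). *Slc6a6*, the taurine carrier, was likewise not called on the deposited scale, at 8.18 ± 0.17 in *wt* and 8.47 ± 0.10 (SD, n = 3) in *F66;Dysf-/-* muscle, and its difference of 0.25 against *Dysf-/-* muscle (adjusted p = 0.0812) passed with centred but not with requantiled arrays. *Slc6a9* (GlyT1), a glycine carrier, was lower in *F66;Dysf-/-* than in *F66* muscle, with a difference of -0.40 (SE 0.12, adjusted p = 0.0185), a call lost without *F66* replicate 2 or 3 or *F66;Dysf-/-* replicate 1 or 2 (adjusted p up to 0.0872). In *F66;Dysf-/-* against *Dysf-/-* muscle 4 of the family fell, with differences of -0.26 to -0.21, namely *Slc6a2*, the noradrenaline carrier, *Slc6a11* and *Slc6a12*, carriers of GABA, and *Slc6a16*. *Slc6a2* also fell in *F66* against *wt* muscle, by 0.31 (adjusted p = 0.0405), a call lost under both other scalings and without any 1 of 8 arrays. The mean signals of these 4 were 5.23 to 5.99, none of the 4 was called under the other scalings in *F66;Dysf-/-* against *Dysf-/-* muscle, and 3 of them lost the call when 1 of several arrays was left out. The same 2 limits hold for *Slc7a14*, which fell by 0.24 there. *Slc6a7*, a proline carrier, was higher in *F66;Dysf-/-* than in *F66* muscle by 0.25 (adjusted p = 0.0131), a call lost without *F66* replicate 1 or 3 (adjusted p up to 0.0598).

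ACVR2B/Fc, the soluble receptor that binds myostatin and related ligands, left the transporters without a call. With limma 0 of 59 passed in *wt* muscle, and 4 were higher and 4 lower where unadjusted p was under 0.05 (4.02% and 3.59% of all genes). In *Dysf-/-* muscle 0 of 59 passed as well, and unadjusted 12 were higher and 3 lower (11.2% and 7.61%). The methods' t-test with adjustment also called 0 in each. The effect averaged over both backgrounds gave 0 of 59 as well (0.42% of all genes), with 13 higher and 5 lower unadjusted (10.3% and 7.76%), and the difference between backgrounds gave 0 (0.00494% of all genes), with 2 higher and 0 lower unadjusted (4.49% and 3.26%). The 95% interval of every transporter excluded a change of more than 1.5-fold, the bounds reaching from -0.58 for *Slc7a8* to 0.58 for *Slc6a9* in *wt* and from -0.44 for *Slc7a6* to 0.47 for *Slc38a1* in *Dysf-/-* muscle. The smallest adjusted p for the averaged effect was that of *Slc38a11* (-0.20, adjusted p = 0.0606), followed by *Slc38a4* (-0.23, adjusted p = 0.0952). *Slc38a4* was lower in all 3 injected *wt* arrays (10.49 to 10.57) than in all 3 *wt* arrays (10.78 to 10.89), and *Slc3a2* likewise (7.00 to 7.05 against 7.19 to 7.25), neither of them called. Arrays of these 2 groups were separate in this way for 4 lower and 5 higher of the 59 transporters. The same held for 1202 lower and 1181 higher of all 20259 genes. *Slc7a5* averaged 0.19 (adjusted p = 0.116), *Slc7a10* 0.18 and *Slc36a2* 0.18, and the mean of the adipocyte markers was 7.54 with and 7.28 without ACVR2B/Fc in *wt*, and 7.36 and 7.19 in *Dysf-/-* muscle. The array ranges of that marker mean overlapped on both backgrounds. No adipocyte marker was called for the averaged effect, and the part of these cells was not tested. *Slc7a8* differed by -0.35 in *wt* (adjusted p = 0.358) and by -0.063 in *Dysf-/-* muscle (adjusted p = 0.768). Without ACVR2B/Fc-injected *Dysf-/-* replicate 1, 1 transporter was called in *Dysf-/-* muscle and 1 for the averaged effect, and without *wt* replicate 2, 2 were called for the averaged effect.

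The transgene and the soluble receptor were also compared with each other, although the receptor was given from 6 weeks of age and the transgene is inherited. In *F66* against ACVR2B/Fc-injected *wt* muscle 16 of 59 were called (14.4% of all genes), 5 higher and 11 lower (8.35% and 6.04%), a split that became 10 and 4 with centred and 5 and 6 with requantiled arrays. *Slc7a8* was higher in *F66* muscle by 0.88 (SE 0.10, adjusted p = 4.49e-05), *Slc7a2* by 0.71 (SE 0.18, adjusted p = 0.015), *Slc36a1* by 0.30, *Slc36a4* by 0.27 and *Slc43a2* by 0.16. *Slc1a3* (-0.74), *Slc36a2* (-0.52) and *Slc7a10* (-0.51) were lower, and these 3 together with *Slc6a19* were called under each scaling. The other lower calls, of *Slc6a5*, *Slc6a18*, *Slc6a21*, *Slc7a3*, *Slc7a4*, *Slc38a6* and *Slc38a10*, were not, and *Slc38a6* stands here for its chosen row. The calls of *Slc1a3*, *Slc7a8*, *Slc7a10*, *Slc36a1* and *Slc36a2* held without any 1 array. Each of the other 11 was lost when any 1 of 2 to 14 arrays was left out, that of *Slc7a2* without ACVR2B/Fc-injected *wt* replicate 3 or *F66* replicate 1 (adjusted p up to 0.0696), that of *Slc36a4* without any 1 of 3 arrays, of *Slc6a19* without any 1 of 5 and of *Slc43a2* without any 1 of 11. The count was 6 without ACVR2B/Fc-injected *wt* replicate 2, 8 without *F66* replicate 2 and 8 without *F66* replicate 3. In *F66;Dysf-/-* against ACVR2B/Fc-injected *Dysf-/-* muscle 31 were called (44.4% of all genes), 8 higher and 23 lower (16.2% and 28.2%), with a median of -0.19 over the 59 and -0.12 over all genes, and the split became 14 and 11 with centred and 9 and 14 with requantiled arrays. The 8 higher were *Slc38a1* (1.63), *Slc7a7* (1.08), *Slc36a4* (0.64), *Slc43a2* (0.57), *Slc7a5* (0.41), *Slc3a2* (0.38), *Slc36a1* and *Slc38a9* (both 0.33), and all 8 were called under each scaling. Of the 23 lower calls 11 were made under each scaling, those of *Slc7a10* (-0.63), *Slc36a2* (-0.52), *Slc38a4* and *Slc38a3* (both -0.49), *Slc7a14*, *Slc6a12*, *Slc6a2*, *Slc6a5*, *Slc7a9*, *Slc38a5* and *Slc6a16* (-0.37 to -0.32). The other 12, of *Slc1a1*, *Slc1a7*, *Slc6a4*, *Slc6a11*, *Slc6a17*, *Slc6a18*, *Slc6a19*, *Slc7a3*, *Slc36a3*, *Slc38a8*, *Slc38a11* and *Slc43a1*, had differences of -0.36 to -0.22 and were not called under at least 1 other scaling, and 9 of them, all but *Slc6a11*, *Slc6a18* and *Slc38a11*, also lost the call when 1 array was left out.

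Genes that act with the transporters were taken from 4 lists. Of 27 measured genes of the ATF4 and amino acid response, 6 were higher and 6 lower in *F66;Dysf-/-* against *Dysf-/-* muscle (15.2% and 18.4% of all genes). Their median was -0.10, against -0.086 over all genes. In *F66* against *wt* muscle 1 was higher and 2 lower (8.11% and 5.5% of all genes). *Gpt2*, an alanine aminotransferase, differed by -1.03 and -0.55 in these 2 comparisons, and *Chac1*, which degrades glutathione, by -1.59 and -2.39. *Aldh18a1*, an enzyme of proline synthesis, rose in both (0.52 and 0.43), and *Psat1*, an enzyme of serine synthesis, rose by 0.66 in *F66;Dysf-/-* muscle. Calls in this list thus went in both directions. Of 22 genes of lysosomal amino acid sensing and mTORC1, 3 were higher and 3 lower in *F66;Dysf-/-* against *Dysf-/-* muscle (15.2% and 18.4% of all genes). *Rragd*, a GTPase that recruits mTORC1 to the lysosome, fell by 0.69, and its relative *Rragc* rose by 0.30. *Fnip2*, a partner of folliculin, rose by 0.63, and *Castor2*, a relative of the arginine sensor of mTORC1, rose by 0.47 in *F66* and 0.38 in *F66;Dysf-/-* muscle.

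Of 34 genes of amino acid metabolism, 7 were higher and 15 lower in *F66;Dysf-/-* against *Dysf-/-* muscle (15.2% and 18.4% of all genes). Their median was -0.15, against -0.086 over all genes. In *F66* against *wt* muscle 4 were higher and 3 lower (8.11% and 5.5% of all genes). The enzymes that make creatine rose in both comparisons, *Gatm* by 1.51 and 0.80 and *Gamt* by 1.00 and 0.82, where the creatine carrier *Slc6a8* was not called. *Sat1*, which acetylates polyamines, rose by 0.66 and 0.41, and *Ckb*, a creatine kinase of non-muscle cells, rose by 0.77 in *F66;Dysf-/-* muscle. Of 20 amino acid carriers from other families, 4 were higher and 6 lower in *F66;Dysf-/-* against *Dysf-/-* muscle (15.2% and 18.4% of all genes). None was called in *F66* against *wt* muscle with limma, where 13.6% of all genes were (unadjusted, 0 higher and 1 lower). *Slc15a3*, a peptide and histidine carrier of lysosomes in immune cells, rose by 1.22, *Tmem104* by 0.61 and *Clcn7*, the lysosomal chloride exchanger, by 0.41, while *Slc25a12*, the mitochondrial aspartate-glutamate carrier, fell by 0.33. All of these values stand beside the rise of the macrophage and fibroblast markers given above, whose part in them was not tested.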

How the data were processed

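Quadriceps RNA of 18 mice in 6 groups was measured on exon arrays. The deposited values are log2 probe-set signals that the authors made, per the labels, with RMA in Partek against build mm9, 1 per array for each of 115830 rows. No versions or settings are given in the sources used here. RMA subtracts background and quantile normalizes, which removes changes shared by most genes and shrinks those of dim ones. No detection calls were used, and the small number of arrays limits the precision. Groups came from the sample labels. Symbols came from the platform annotation held by GEO. Rows with several symbols were not named, which leaves out *Slc1a2*.

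The 6 group means were fitted with limma 3.58.1 in R 4.3.3 (12 residual and 3.2 prior degrees of freedom), with Benjamini-Hochberg adjustment over 20259 genes. The fit was first tested on simulated data. With 3 arrays a group, an exact permutation test could not go below p = 0.1 and was not used. The transporters, gene lists and motifs were chosen with earlier results of these data known. The genes named include all those called in a comparison of 2 groups or in the difference of the *F66* effects, 12 well-known transporters and the 3 with the highest mean. They also include those with a motif match, and up to 4 per list with the smallest p. As alternatives, limma was fitted to the compared groups alone, and the results were recomputed with the methods' t-test, with adjustment or at p under 0.01 and over 2-fold, a replicate block, all rows, the mean of a gene's rows, the row at its own locus, no dim genes, both other scalings, a variance trend and leaving out each array. Numbered replicates did not pair by the limit used, a correlation over 0.1 for every same-numbered pair. In ACVR2B/Fc-injected *wt* against *wt* muscle, however, 3 of 3 arrays correlated best with their own number. Figures were drawn with matplotlib.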

Additional observations from a re-analysis of the deposited data

Results flagged for a closer look

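For 9 transporters the difference made by the *F66* transgene differed between the *Dysf-/-* and the *wt* background by the interaction test of limma (16.5% of all genes did). The difference of the 2 log2 differences was 1.55 for *Slc38a1*, 1.17 for *Slc7a7*, 0.54 for *Slc7a5*, 0.53 for *Slc43a2*, 0.46 for *Slc3a2*, 0.43 for *Slc36a4*, 0.39 for *Slc38a6*, -0.53 for *Slc38a4* and -0.62 for *Slc1a1*. The adjusted p ran from 6.66e-06 for *Slc7a7* to 0.0195 for *Slc1a1*. For *Slc38a6* the row at its own locus gave 0.71 (adjusted p = 0.000665) in place of 0.39, and the call on the chosen row was lost with requantiled arrays. On the *wt* background 2 of the 9, *Slc36a4* and *Slc43a2*, were called, and on the *Dysf-/-* background all 9 were. The macrophage and monocyte markers had means of 6.18 in *wt*, 7.19 in *F66*, 6.82 in *Dysf-/-* and 8.89 in *F66;Dysf-/-* muscle, and their part in these 9 differences was not tested. No group holds 4 or more arrays, so single arrays were not examined as outliers.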

How the results depend on the processing

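Counts of called transporters within 1.5 times of those reported are not listed. With limma on the compared groups alone, the counts became 0 for *Dysf-/-* against *wt*, 5 for *F66* against *wt* and 10 for *F66* against ACVR2B/Fc-injected *wt* muscle. The methods' t-test with adjustment gave 0, 1 and 4 for these, and 13 for *F66;Dysf-/-* against *Dysf-/-*. At the methods' threshold it gave 0, 0 and 0 for these 3, 2 for *F66;Dysf-/-* against *Dysf-/-*, 4 against *F66* and 2 against ACVR2B/Fc-injected *Dysf-/-* muscle. With all rows tested, 0, 1, 4, 13, 13 and 20 were called in the same order, 4 for the difference of the *F66* effects and 15 over the 6 groups. With the mean of a gene's rows *Dysf-/-* against *wt* gave 1, *Slc7a1* reversed to -0.036 in *F66;Dysf-/-* against *Dysf-/-* muscle, and *Slc38a9* reversed to -0.024 against ACVR2B/Fc-injected *Dysf-/-* muscle. Quantile normalizing again gave 1 for the averaged ACVR2B/Fc effect. The cause of these shifts was not tested, other than that fewer arrays or more rows enter some of them.

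The replicate number as a block gave 1 for *Dysf-/-* against *wt* muscle and moved no other count by over 1.5 times. It ended the calls of *Slc38a1* in that comparison, of *Slc38a6* in *F66;Dysf-/-* against *Dysf-/-* and of *Slc7a3* in *F66* against ACVR2B/Fc-injected *wt* muscle. In no comparison did every same-numbered pair of arrays have deviations that correlated over 0.1. The lowest correlation was -0.067 and the highest 0.29, and in ACVR2B/Fc-injected *wt* against *wt* muscle 3 of 3 arrays correlated best with their own number, a hint from the data and not the design.

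Leaving out 1 array, the counts ranged from 0 to 3 for *Dysf-/-* against *wt*, 7 to 13 for *F66* against *wt*, 17 to 24 for *F66;Dysf-/-* against *Dysf-/-*, 16 to 22 against *F66*, 6 to 18 for *F66* against ACVR2B/Fc-injected *wt*, 23 to 32 for *F66;Dysf-/-* against ACVR2B/Fc-injected *Dysf-/-*, 8 to 11 for the difference of the *F66* effects and 29 to 39 over the 6 groups. For ACVR2B/Fc they were 0 to 0 in *wt*, 0 to 1 in *Dysf-/-*, 0 to 2 averaged and 0 to 0 for its difference. The count for *F66* against *wt* was 7 without *F66* replicate 1 or 3.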
